A study of Equus caballus with 23 samples.

Results

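RNA sequencing libraries from the gluteus medius of Arabian horses at the end of the flat racing season (T2) were compared with libraries from untrained horses (T0). The comparison took 15 of the 23 libraries of the series, chosen by their labelled time point: 5 T0 libraries (m8, m9, m10, m12 and m13, from 3 males and 2 females aged 2.5 years) and 10 T2 libraries (m14 to m23, from 7 males and 3 females aged 3 years). The other 8 libraries (T1) came from 4 males and 4 females aged 3 years that had completed gallop training before the races, and entered only the shared estimate of spread and the values set side by side. All horses were of 1 breed, and the labels name no treatment other than race training. The gluteus medius is the large propulsive muscle of the hindquarter, sampled here with a biopsy needle of 2 mm diameter. Nothing in the labels ties libraries to individual horses, so repeat sampling is possible and the tests measure library-to-library spread only. T0 horses were 2.5 years old and T2 horses 3 years old, so age and training status cannot be told apart.

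Skeletal muscle that is exercised repeatedly over months is known to build more mitochondria, which needs nuclear genes for the respiratory chain, for the ribosomes inside mitochondria and for the machinery that imports and folds mitochondrial proteins. Trained muscle also adjusts its use of fat and glycogen, the turnover of damaged protein by the proteasome and chaperones, and the proportions of slow oxidative and fast glycolytic fibres. A biopsy holds vessels, connective tissue, nerve and fat beside the fibres, and in bulk RNA fewer cells of a type cannot be told apart from less RNA per cell.

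Total counts lay between 12604125 and 17477172 per library in T0 and between 12185608 and 19804694 in T2, and the mean difference was within the spread (exact two-sided permutation test over 3003 assignments, p = 0.534, adjusted p = 0.534 over 2 tests). Contractile genes of muscle were abundant in every library, with ACTN3, a Z-disc protein of fast fibres, at 851 to 3497 CPM (a gene's count scaled to the size of its library) over the 15 libraries. T0 library m12 stood apart from the other T0 libraries: its scaling factor was 0.749 against 1.06 to 1.45 in the other 4, and it had the fewest detected genes of T0 (13285). In each library, the mean level of the fifth of genes with the longest span (over 59838 bp in the authors' coordinates) was set against that of the fifth with the shortest span (under 5279 bp), each as a log2 CPM deviation from the gene's mean over all libraries. This long-minus-short value was 0.0430 to 0.264 in T0. In T2 it was -0.448 to -0.316 in m14, m16, m17 and m22 and -0.0802 to 0.0632 in the other 6 libraries. The results below are therefore also given without those 4 libraries together, a choice made after seeing the data.

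At the end of the season, the pathway lists with the largest shares of risen genes were oxidative phosphorylation, the mitochondrial ribosome, mitochondrial import and the ubiquitin proteasome list. Those with the largest shares of fallen genes were the neuromuscular junction and dystrophin complex, lipid synthesis and storage, and growth and atrophy, and among marker lists that of smooth muscle cells and pericytes had the largest share of fallen genes. Of 11545 genes tested, 1851 passed an edgeR adjusted p of 0.05 (16%), with 777 higher in T2 (6.73%) and 1074 lower (9.3%). The median log2 fold change over all tested genes was -0.03, and 3707 genes had an unadjusted p under 0.05. In 109 genes every T2 library lay above every T0 library (0.944%), and in 199 every T2 library lay below every T0 library (1.72%). In the same fit T1 minus T0 gave 798 calls and T2 minus T1 gave 3188. Each of those shares the T0 or the T2 libraries with the first. The plot of called members by gene list shows the groups against the shares over all genes.

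**Figure D1:**
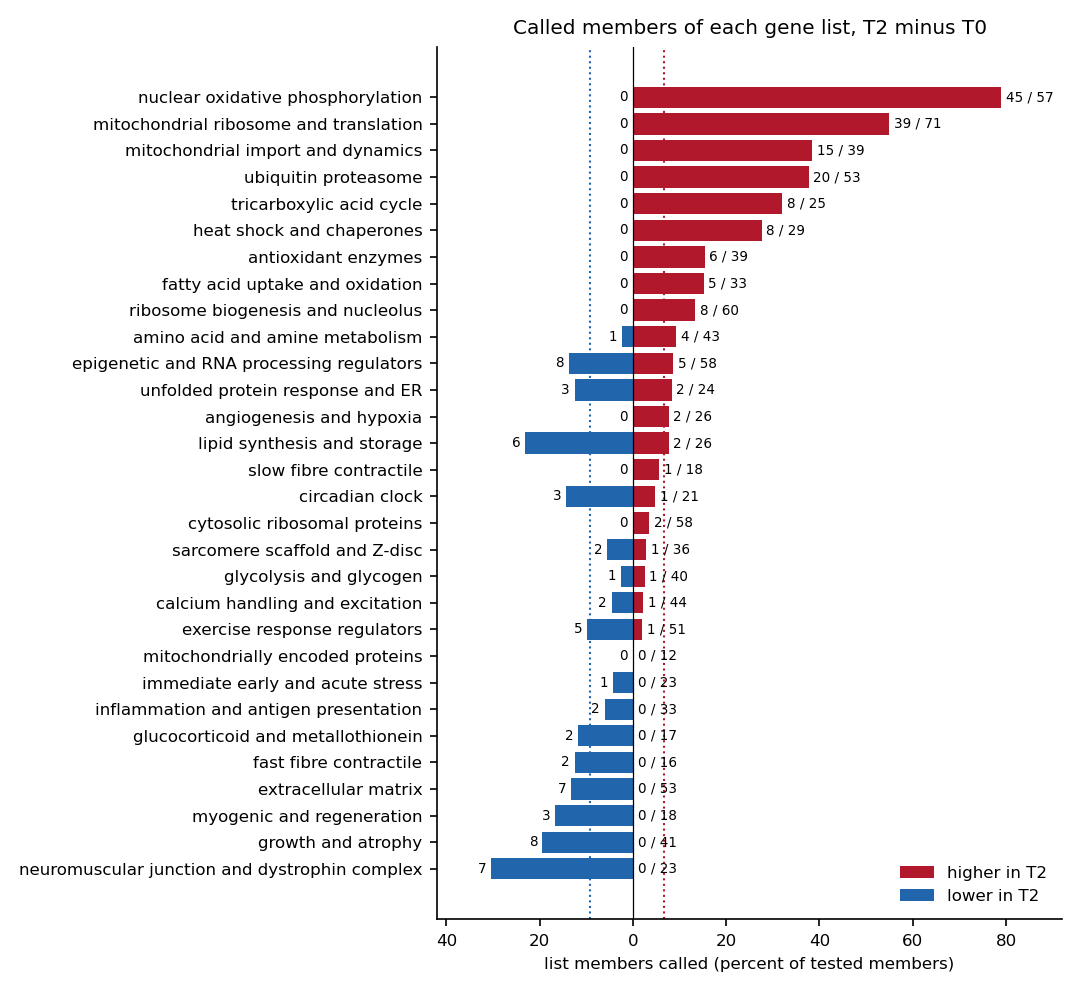
Share of the tested members of each gene list that were called by edgeR at an adjusted p of 0.05, higher in T2 to the right and lower in T2 to the left, in percent. Labels give the called count and, on the right, the number tested; dotted lines mark the shares over all tested genes (6.73% higher and 9.3% lower), and nuclear oxidative phosphorylation reaches 45 of 57.

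The number of calls depended on single libraries. It was 1075 without m9 and 986 without m13, and calls higher in T2 were 417 and 306 without them. Calls lower in T2 were 644 without m8, 658 without m9, 694 without m10 and 680 without m13. Leaving out m14, m16, m17 and m22 together left 276 calls (59 higher, 217 lower), all of them called the same way with every library. With male horses alone (3 T0 and 7 T2) 25 genes passed, 1 higher and 24 lower. Of the 30 pathway lists, 28 then had no called member, while 25 kept the sign of their median log2 fold change. Of the called genes described here, 61 were followed singly through the alternatives, and 26 of these 61 kept their call without m14, m16, m17 and m22. These were LYRM7, UGP2, HSPD1, IDH3A, TFB2M, MRPS31, MRPL2, MRPL19, PSMA4, PSMB2, DNAJA4 and PRKAG1 among rises, and RNF213, NIN, SH3PXD2A, SETBP1, LIFR, GJA1, KMT2A, UTRN, NR3C1, LAMC1, MGLL, SMYD1, CACNA2D1 and IGF1R among falls. In male horses alone KMT2A, NIN, SH3PXD2A and ACACA kept theirs, and none of the 61 changed sign in either setting.

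Nuclear genes of oxidative phosphorylation, which encode subunits of the respiratory chain and of ATP synthase, rose most widely. Of 57 tested, 45 were called higher (78.9%, against 6.73% over all genes) and none lower. All 57 log2 fold changes were above 0, and their median was 0.55 against -0.03 over all genes. Called subunits came from complex I (NDUFV2, 0.63), complex III (UQCRB, 0.61), complex IV (COX7A2, 0.86) and ATP synthase (ATP5J2, 0.83). The mean log2 CPM over the 57 genes was 7.73, 7.43, 7.49, 7.89 and 7.30 in the T0 libraries m8, m9, m10, m12 and m13, the order in which T0 values are given throughout. In T2 it ran from 7.69 in m15 over a median of 8.13 to 8.4 in m16. Library m15 therefore lay below T0 libraries m8 and m12, while most T2 libraries lay above all of T0.

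COX5A, a nuclear subunit of cytochrome c oxidase, was at 326, 314, 273, 352 and 238 CPM in T0. In T2 it ran from 359 over a median of 494 to 595 CPM. All 10 T2 libraries lay above the highest T0 library, and the log2 fold change was 0.70 ± 0.15 (SE, n = 5 and 10, edgeR adjusted p = 0.00545). ATP5J2, a subunit of the membrane part of ATP synthase, was at 163, 123, 122, 159 and 86.3 CPM in T0. Its T2 values were 167 to 310 CPM with a median of 251, again all above T0, with a log2 fold change of 0.83 ± 0.18 (adjusted p = 0.006). NDUFV2, an iron-sulphur subunit of the electron input part of complex I, averaged 233 ± 40.5 CPM in T0 and 361 ± 61.2 in T2 (SD), with 8 of 10 T2 libraries above T0.

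LYRM7, which helps to insert the iron-sulphur protein into complex III, showed one of the clearest rises. It was at 8.44, 5.22, 8.42, 5.93 and 5.96 CPM in T0 and ran from 9.57 over a median of 12.8 to 19.4 CPM in T2. No T2 library overlapped T0 (log2 fold change 0.98 ± 0.16, edgeR adjusted p = 0.00116). In T1 it was at 8.08 ± 1.26 CPM (SD, n = 8), near its T0 mean of 6.80 ± 1.52.

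The count of oxidative phosphorylation genes rested on several libraries. It was 22 without m9, 26 without m10 and 16 without m13, and without m14, m16, m17 and m22 no member passed and the median was 0.37. COX5A then stood at 0.52 (edgeR adjusted p = 0.0691), ATP5J2 at 0.66 (adjusted p = 0.0737) and NDUFV2 at 0.48 (adjusted p = 0.0784). These genes are short, with a median span of 5.22 kb against 18.7 kb over all tested genes with coordinates, and 38 of the 57 were called once the trend of level on span was taken out. Side by side, the list's median was 0.43 in T1 against T0 and 0.16 in T2 against T1, with shared libraries.

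**Figure D2:**
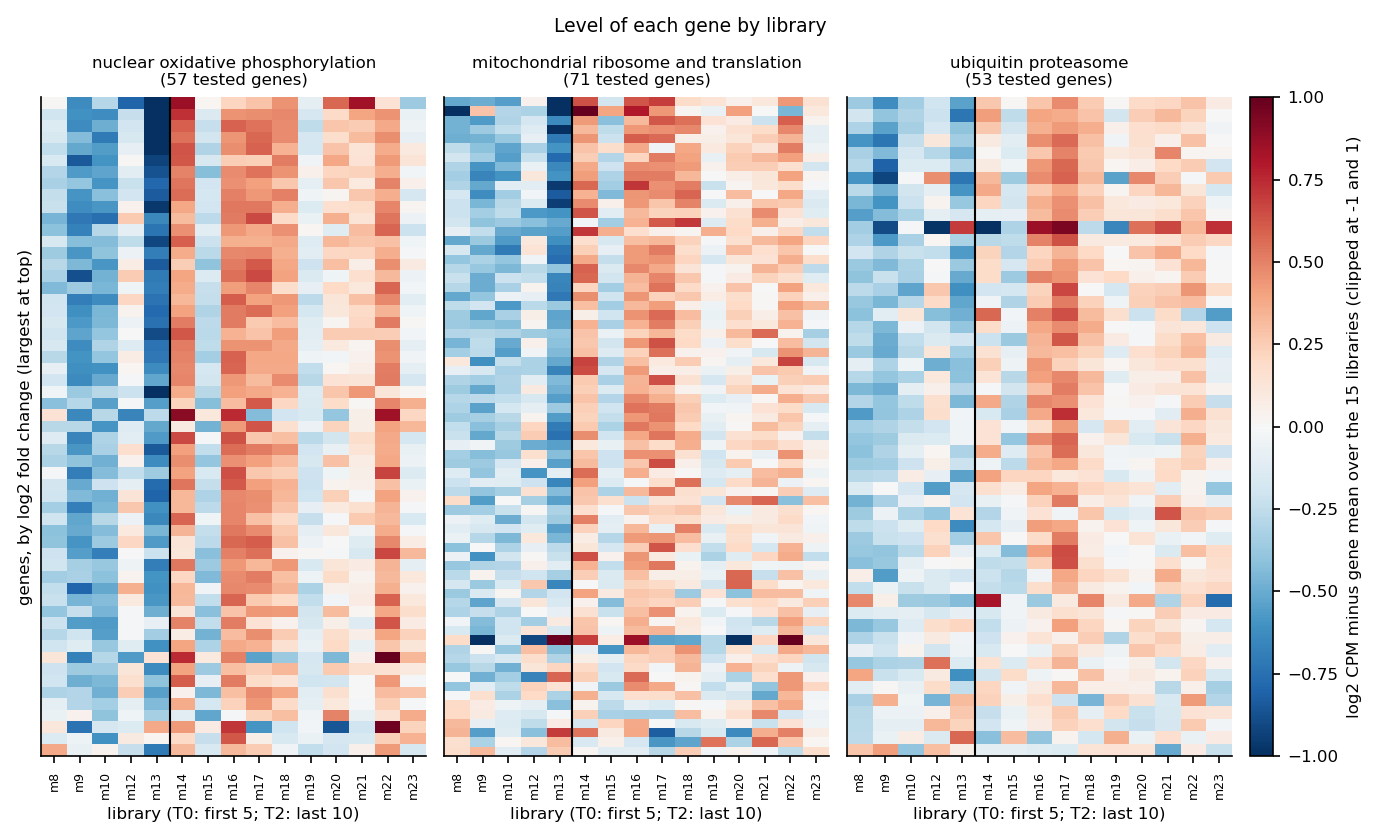
Level of each tested gene (rows, ordered by log2 fold change) in the 5 T0 and 10 T2 libraries (columns), as log2 CPM minus the gene's mean over the 15 libraries, for 3 gene lists. Most rows are blue in T0 libraries m9, m10 and m13 and red in T2 libraries m14, m16, m17 and m22, while T0 library m12 and T2 libraries m15 and m19 are close to the mean.

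The mitochondrial ribosome and its translation factors make the proteins encoded in the mitochondrial genome. Of 71 of their genes tested, 39 were called higher (54.9%, against 6.73% over all genes), none lower and 32 did not pass. The median was 0.44, with 69 values above 0. MRPL2, a protein of the large mitochondrial ribosomal subunit, was at 23.0, 21.1, 22.4, 17.9 and 17.7 CPM in T0 and ran from 24.6 over a median of 30.5 to 41.4 CPM in T2. MRPL19, of the same subunit, was at 9.58, 8.6, 7.89, 9.12 and 7.54 CPM in T0 and at 11.1 to 16.3 CPM in T2 (median 13.2). Both genes had every T2 library above every T0 library, with log2 fold changes of 0.60 ± 0.13 (edgeR adjusted p = 0.00487) and 0.64 ± 0.14 (adjusted p = 0.00546). MRPS31, of the small subunit, changed by 0.63 ± 0.12 (adjusted p = 0.0033), with 9 of 10 T2 libraries above T0. The count of 39 was 18 without m13 and 3 without m14, m16, m17 and m22, and 38 with the span trend removed.

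Mitochondrial import and dynamics genes, which bring proteins into the organelle, fold them and shape it, had 15 of 39 tested members called higher and none lower (median 0.34). The higher share was 38.5%, against 6.73% over all genes. HSPD1, the chaperonin that folds imported proteins, was at 126, 124, 108, 133 and 99.0 CPM in T0. In T2 it ran from 142 over a median of 185 to 209 CPM. All T2 libraries lay above T0 (log2 fold change 0.63 ± 0.12, edgeR adjusted p = 0.00285), and the T1 mean of 182 ± 23.4 was the same as the T2 mean of 182 ± 22.3 to 3 digits. TIMM8B, a small carrier chaperone of the space between the mitochondrial membranes, rose from 37.8 ± 7.58 to 61.8 ± 14.6 CPM (0.71 ± 0.16, adjusted p = 0.00754). Its T1 mean was 36.0 ± 5.61 CPM. TFB2M, a transcription factor of the mitochondrial genome, rose by 0.41 ± 0.10 on the log2 scale (edgeR adjusted p = 0.00934). The count of 15 was 9 without m9, 9 without m10, 5 without m13, 23 without m15, and 2 without m14, m16, m17 and m22, where TIMM8B had 0.61 (adjusted p = 0.0732). It was 23 by DESeq2 and 23 by limma voom.

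Proteins encoded in the mitochondrial genome itself had a median log2 fold change of 0.30 over 12 tested genes, 11 of them above 0, and none passed the test. Their share of all counts was 43.0%, 32.9%, 34.0%, 50.6% and 37.0% in T0 and ran from 39.3% over a median of 44.4% to 47.7% in T2. The difference of 4.44 percentage points did not pass an exact two-sided permutation test (39.5% ± 7.32, n = 5, against 43.9% ± 2.79, n = 10, SD; p = 0.107, adjusted p = 0.214 over 2 tests). T0 library m12 had the highest share of the 15 libraries. Without m12 the difference was 7.21 percentage points with p = 0.00599 in the exact test, and 8 of the 12 genes were called higher. With male horses alone the difference was 1.62 percentage points (exact test, p = 0.683).

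Among fuel pathways, the tricarboxylic acid cycle, which feeds electrons to the respiratory chain, had 8 of 25 tested genes called higher and none lower (median 0.30). That was 32% called higher, against 6.73% over all genes. IDH3A, a subunit of the rate-controlling NAD-dependent isocitrate dehydrogenase, rose from 73.7 ± 8.6 CPM in T0 to 118 ± 25.7 in T2, with 9 of 10 T2 libraries above T0 (0.68 ± 0.16, edgeR adjusted p = 0.00806). SDHB, the iron-sulphur subunit shared with respiratory complex II, was at 403, 348, 327, 387 and 265 CPM in T0. It ran from 352 over a median of 555 to 584 CPM in T2, so that 1 T2 library fell within T0 (0.57 ± 0.14, adjusted p = 0.00978). CS, citrate synthase, whose activity is a common measure of mitochondrial content, was at 353 ± 46.0 CPM in T0 and 398 ± 61.7 in T2 and did not pass (0.17 ± 0.13, adjusted p = 0.354). In T1 CS was at 522 ± 58.7 CPM. The count of 8 was 5 without m8, 4 without m9, 4 without m10, 2 without m13, 13 without m15, 5 without m16, 4 without m17, 5 without m18, 5 without m22, and 1 without m14, m16, m17 and m22, where SDHB had 0.46 (adjusted p = 0.108). It was 4 with only T0 and T2 in the fit and 13 by DESeq2 and by limma voom.

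Fatty acid uptake and oxidation genes had 5 of 33 tested members called higher (HADHA, ACADVL, ETFA, DECR1 and ACOT13) and none lower, with a median of 0.37. The higher share was 15.2%, against 6.73% over all genes. The list's mean level was 5.10 to 5.46 log2 CPM in T0. Among all genes at 4.51 log2 CPM or more, 16.9% were called higher. ACOT13, a thioesterase that releases free fatty acids from acyl-CoA, was at 29.9, 23.6, 21.4, 35.7 and 17.1 CPM in T0 and ran from 32.3 over a median of 47.5 to 54.4 CPM in T2. Only m12 of T0 reached into the T2 range, and the log2 fold change was 0.82 ± 0.19 (edgeR adjusted p = 0.00725). CPT1B, the muscle form of the gate for fatty acid entry into mitochondria, did not pass (0.54 ± 0.22, adjusted p = 0.0907). DECR1, needed to oxidise unsaturated fatty acids, ended without m13 (0.51, adjusted p = 0.0608). The list count was 3 without m8, m9, m20, m21 or m22, 2 without m10, m16, m17 or m18, 1 without m13, and 12 by limma voom. Without m14, m16, m17 and m22 it was 0, with ACOT13 at 0.73 (adjusted p = 0.0753) and DECR1 at 0.48 (adjusted p = 0.114).

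PDK4, the kinase that blocks glucose carbon from entering mitochondria, had the widest spread of the fuel genes. It was at 3.23, 1.47, 2.16, 40.6 and 3.26 CPM in T0 and ran from 3.32 over a median of 59.9 to 812 CPM in T2. All T2 libraries were above 4 of the 5 T0 libraries, but m12 lay among them, and the log2 fold change of 3.95 ± 1.61 did not pass (edgeR adjusted p = 0.0945). UCP3, a mitochondrial carrier induced by fat use, spread from 13.1 to 197 CPM in T2 against 24.2 to 50.3 in T0 and did not pass (0.83 ± 0.56, adjusted p = 0.31).

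Glycolysis and glycogen genes showed no shift as a group: 1 of 40 tested was called higher (UGP2) and 1 lower (SLC2A1), with a median of 0.05. Each share was 2.5%, against 6.73% and 9.3% over all genes. UGP2, which makes UDP-glucose for glycogen synthesis, was at 270, 263, 211, 248 and 160 CPM in T0 and ran from 303 over a median of 391 to 581 CPM in T2. Every T2 library was above every T0 library (log2 fold change 0.79 ± 0.16, edgeR adjusted p = 0.00369), and the T1 mean was 280 ± 35.6 CPM against 230 ± 45.4 in T0. LDHA, the lactate dehydrogenase subunit of fast muscle, was at 1808 ± 636 CPM in T0 and 1755 ± 512 in T2 (-0.04 ± 0.32, adjusted p = 0.943). Its sign depended on the setting, for example 0.02 with sex as a covariate. PGAM2, the muscle phosphoglycerate mutase of glycolysis, was at 1643 ± 304 CPM in T0 and 1821 ± 487 in T2 (0.15 ± 0.23, adjusted p = 0.684), and at -0.08 without m14, m16, m17 and m22. In T1 these 2 genes were at 734 ± 336 and 787 ± 245 CPM. The call of SLC2A1 was lost without m8, m10, m16, m17, m18, m20, m22 or m23, and without the 4 T2 libraries together, and the count of risen genes was 3 without m12 and 2 without m19.

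Contractile genes that mark fibre type had few calls. Of 18 slow fibre genes tested, 17 log2 fold changes were above 0 with a median of 0.47, but 1 was called (ANKRD2, 1.32 ± 0.45, edgeR adjusted p = 0.0476). That was 5.56% called higher, against 6.73% over all genes. MYH7, the slow myosin heavy chain, was at 4947, 7654, 4039, 18930 and 5666 CPM in T0 and ran from 4035 over a median of 5842 to 25920 CPM in T2. The ranges overlapped nearly fully (0.04 ± 0.43, adjusted p = 0.966), and its sign turned under several settings. MYL3, a myosin light chain of slow fibres, did not pass either (0.57 ± 0.37, adjusted p = 0.286).

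Of 16 fast fibre genes tested, 2 were called lower (12.5% against 9.3% over all genes) and none higher, with a median of -0.07. The 2 were SRL (-0.38, edgeR adjusted p = 0.0499) and MYOZ3 (-0.36, adjusted p = 0.0493). A pair of gene identifiers carries the symbol MYH2 in the authors' tables, and reads of such closely related myosin genes may be split between them. The first (ENSECAG00000022909) was at 22375 ± 12012 CPM in T0 and 14985 ± 7958 in T2 (-0.58 ± 0.60, edgeR adjusted p = 0.527). The second (ENSECAG00000024667) was at 16559 ± 5606 and 18633 ± 6601 CPM (0.17 ± 0.49, adjusted p = 0.839). ACTN3 was at 2164 ± 1029 and 1649 ± 606 CPM (-0.39 ± 0.40, adjusted p = 0.525). In T1 MYH7 stood at 29959 ± 15576 CPM and ENSECAG00000022909 at 2086 ± 1786 CPM.

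The few fibre-list calls lay just under the threshold and were lost when any of several libraries was left out. ANKRD2, a stretch-responsive protein, had 147 CPM in T2 library m23 against at most 61.2 in the other T2 libraries, and its log2 fold change was 0.96 without m23 (edgeR adjusted p = 0.0665) and 1.15 without m13 (adjusted p = 0.126). Its call was lost in 15 of 27 alternatives other than male horses alone, among them those without m8, m9, m10, m12, m16, m17, m18, m20, m21 or m22. The slow list had 3 calls without m12 and 7 by limma voom. The fast list had 1 call without m8 and none without m9, m10, m13, m14, m16, m17, m18, m20, m21 or m22, with relative log expression scaling in place of TMM, or with sex as a covariate.

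The ubiquitin proteasome list holds mainly subunits and assembly factors of the complex that degrades ubiquitin-tagged protein, with some enzymes that attach, remove or handle the tag. Of 53 genes tested, 20 were called higher (37.7%, against 6.73% over all genes), none lower and 33 did not pass. The median was 0.34, with 50 values above 0. PSMB2, a subunit of the catalytic core, was at 31.4, 26.2, 31.7, 35.1 and 27.8 CPM in T0 and ran from 40.8 over a median of 47.4 to 56.1 CPM in T2. PSMD14, the subunit of the lid that removes ubiquitin chains, was at 30.5, 28.1, 33.9, 31.3 and 27.6 CPM in T0 and at 34.6 to 53.8 CPM in T2 (median 41.3). Both had every T2 library above every T0 library, with log2 fold changes of 0.62 ± 0.13 (edgeR adjusted p = 0.00487) and 0.51 ± 0.12 (adjusted p = 0.00922). PSMA4, of the core's outer ring, rose by 0.53 ± 0.11 (adjusted p = 0.00444) and stood at 35.7 ± 4.43 CPM in T1 against 38.6 ± 3.63 in T0 and 55.8 ± 7.27 in T2. The list's median was 0.07 in T1 against T0 and 0.25 in T2 against T1.

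TRIM63, the muscle ubiquitin ligase of the atrophy programme, is no proteasome subunit and did not pass (1.12 ± 0.41, edgeR adjusted p = 0.0623). It spread from 42.9 to 252 CPM in T2 against 24.7 to 64.1 in T0. The count of 20 genes of the ubiquitin proteasome list was 12 without m8, 8 without m9, 8 without m13, 11 without m16, 11 without m17, 12 without m22, and 2 without m14, m16, m17 and m22, where PSMD14 had 0.49 (adjusted p = 0.0575). With the span trend removed it was 19.

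Heat shock proteins and chaperones, which refold damaged protein, had 8 of 29 tested genes called higher and none lower (median 0.36). That was 27.6% called higher, against 6.73% over all genes. CRYAB, the small heat shock protein that protects desmin and actin filaments, was at 483, 531, 530, 620 and 451 CPM in T0 and ran from 468 over a median of 956 to 1520 CPM in T2. In T2 9 of 10 libraries lay above all of T0 (log2 fold change 0.86 ± 0.21, edgeR adjusted p = 0.0103), and T1 stood at 1226 ± 343 CPM. DNAJA4, a co-chaperone of the HSP70 family, was at 26.8, 31.9, 29.0, 26.6 and 25.4 CPM in T0 and at 32.2 to 68.2 CPM in T2 (median 45.8), all above T0 (0.81 ± 0.16, adjusted p = 0.00333). The list count was 5 without m9, 4 without m13, 5 with the span trend removed and 2 without m14, m16, m17 and m22, where CRYAB had 0.86 (adjusted p = 0.0634).

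Antioxidant enzymes had 6 of 39 tested genes called higher and none lower (median 0.28). The higher share was 15.4%, against 6.73% over all genes. The list's mean level was 4.24 to 4.51 log2 CPM in T0. Among all genes, 9.96% were called higher at 3.18 to 4.51 log2 CPM and 16.9% above that level. MGST2, a microsomal glutathione transferase, was at 10.7, 11.3, 12, 10.9 and 10.7 CPM in T0 and ran from 12 over a median of 16.9 to 20 CPM in T2. The T2 libraries all lay above T0 by a narrow margin at the lowest (0.57 ± 0.15, edgeR adjusted p = 0.0127). In T1 MGST2 was at 6.97 ± 1.54 CPM, below both. The count was 2 without m13, 10 by DESeq2, 13 by limma voom and 0 without m14, m16, m17 and m22, where MGST2 had 0.45 (adjusted p = 0.118).

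**Figure D3:**
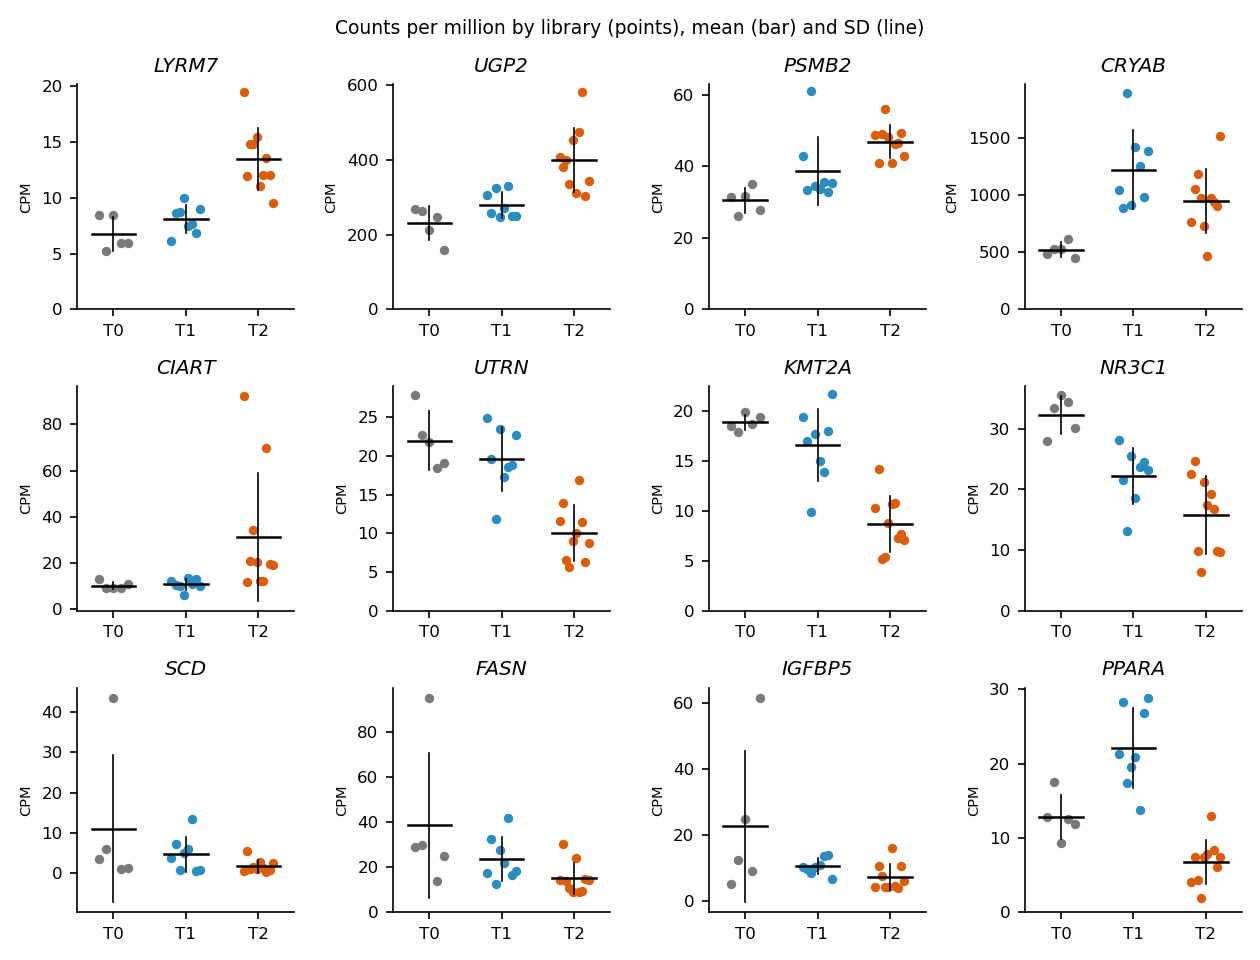
CPM in each library for 12 genes at T0 (5 libraries), T1 (8) and T2 (10), with linear axes, the mean as a bar and the SD as a line. LYRM7, UGP2 and PSMB2 have all T2 points above T0 and UTRN, KMT2A and NR3C1 all T2 points below T0, while the T0 means of SCD, FASN and IGFBP5 carry 1 high library each.

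Regulators of the exercise response had 1 of 51 tested genes called higher (PRKAG1) and 5 lower (PPARA, PRKAA2, HDAC9, MEF2A and NRF1), with a median of -0.16. These shares, 1.96% and 9.8%, were below and near those over all genes (6.73% and 9.3%). PPARA, a nuclear receptor that switches on fat oxidation genes, was at 12.9, 17.5, 9.31, 12.5 and 11.9 CPM in T0 and ran from 2.00 over a median of 7.45 to 12.9 CPM in T2. In T2 9 of 10 libraries lay below all of T0 (-0.90 ± 0.25, edgeR adjusted p = 0.0208), whereas T1 stood at 22.1 ± 5.43 CPM. PRKAG1, a regulatory subunit of the energy sensor AMPK, rose from 13.6 ± 2.84 to 19.7 ± 2.21 CPM (0.53 ± 0.11, adjusted p = 0.00501). PPARGC1A, the coactivator that drives mitochondrial biogenesis, was at 14.3 to 23.6 CPM in T0 and 6.13 to 74.1 in T2 and did not pass (0.43 ± 0.48, adjusted p = 0.571). By limma voom PPARGC1A had -0.14. PPARA had -0.75 without m9 (adjusted p = 0.0811) and -0.58 without m14, m16, m17 and m22 (adjusted p = 0.109). The count of 5 was 1 without m9, 2 without m13, 2 with no filter on low counts, 3 with only T0 and T2 in the fit, 2 with the span trend removed, 8 by limma voom and 0 without those 4 libraries. The 1 risen gene became 2 without m12, m18, m19 or m23, 3 with the span trend removed and 4 by DESeq2.

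NR3C1, the glucocorticoid receptor, fell clearly. It was at 28.0, 33.4, 35.6, 34.5 and 30.1 CPM in T0 and ran from 6.42 over a median of 17.1 to 24.7 CPM in T2. No T2 library reached T0 (-1.03 ± 0.23, edgeR adjusted p = 0.0064), and T1 lay between at 22.3 ± 4.61 CPM. The glucocorticoid and metallothionein list that holds it had 2 of 17 tested members called lower, 11.8% against 9.3% over all genes, and 0 higher. The list's median was 0.22, with 11 of the 17 values above 0. NR3C1 spans 104 kb, and among all genes of 59.8 to 105 kb 17.3% were called lower.

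Growth and atrophy genes had 8 of 41 tested members called lower (IGFBP5, INSR, IGF1R, FSTL1, FOXO3, IGF2R, ACVR2A and SMAD4) and none higher, with a median of -0.19. The lower share was 19.5%, against 9.3% over all genes. The fallen genes include receptors of insulin and its related growth factors beside FOXO3, a driver of atrophy genes, and ACVR2A, a receptor of the growth inhibitor myostatin. IGF1R, the receptor of insulin-like growth factor 1, was at 4.71, 4.94, 3.00, 2.44 and 4.78 CPM in T0 and ran from 1.58 over a median of 2.20 to 3.36 CPM in T2 (-0.85 ± 0.19, edgeR adjusted p = 0.00642). In T2 8 of 10 libraries lay below all of T0. ACVR2A changed by -0.43 ± 0.11 (adjusted p = 0.014), and by -0.25 with the span trend removed (adjusted p = 0.115).

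IGFBP5, a binding protein of insulin-like growth factors, depended on 1 library. It was at 5.16, 12.2, 24.6, 9.01 and 61.6 CPM in T0 and at 3.90 to 16 CPM in T2 (median 5.25), so the ranges overlapped. Its log2 fold change was -1.66 ± 0.42 (edgeR adjusted p = 0.0132) and -0.84 without m13 (adjusted p = 0.137). With m12 or m15 left out 2 genes of the list were called higher. The growth and atrophy count was 5 without m10, 3 without m13, 13 by limma voom and 1 without m14, m16, m17 and m22, where ACVR2A had -0.42 (adjusted p = 0.0873) and IGFBP5 -1.59 (adjusted p = 0.103).

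Lipid synthesis and storage genes had 6 of 26 tested members called lower (SCD, FASN, ACACA, MGLL, ACLY and ACACB) and 2 higher (PLIN2 and DGAT1), with a median of -0.21. These shares were 23.1% and 7.69%, against 9.3% and 6.73% over all genes, so the higher share was near that over all genes. SCD, FASN, ACACA, ACLY and ACACB make or modify fatty acids or their precursors, while MGLL splits monoacylglycerol. MGLL was at 34.8, 30.9, 21.9, 21.7 and 22.3 CPM in T0 and ran from 10.4 over a median of 15.3 to 21.4 CPM in T2. All T2 libraries were below T0 (-0.79 ± 0.17, edgeR adjusted p = 0.00576). ACACA, the acetyl-CoA carboxylase that commits carbon to fatty acids, was at 10.8, 12.6, 15, 9.86 and 5.57 CPM in T0 and at 4.15 to 9.33 CPM in T2 (-0.92 ± 0.21, adjusted p = 0.00761).

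SCD, the desaturase that makes monounsaturated fatty acids, had the largest fall by the naming rule and rested on T0 library m10. It was at 3.48, 5.99, 43.5, 1.06 and 1.35 CPM in T0 and at 0.316 to 5.58 CPM in T2 (median 1.28). The log2 fold change was -2.64 ± 0.79 (edgeR adjusted p = 0.0289), and -0.75 without m10 (adjusted p = 0.518). FASN, fatty acid synthase, was also highest in m10, at 95.5 CPM against 14.1 to 29.9 in the other T0 libraries and 9.21 to 30.2 in T2. It changed by -1.36 ± 0.36 (adjusted p = 0.0159), and by -0.68 without m10 (adjusted p = 0.155). Of 10 listed adipocyte markers 4 were tested. These summed to 80.3 to 178 CPM in T0 and 123 to 277 CPM in T2, and none of them was called. Their mean log2 CPM was 3.51, 4.39, 4.69, 3.30 and 3.47 in T0 and 3.34 to 4.31 in T2. By this mean, m10 stood above every other T0 and T2 library. The part of fat cells in the SCD and FASN values of m10 was not tested.

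PLIN2, which coats lipid droplets in muscle, was at 31.0 ± 8.13 CPM in T0 and 59.2 ± 22.3 in T2 (0.94 ± 0.31, edgeR adjusted p = 0.0399), with 8 T2 libraries above T0 and 1 below. Its call was lost in 14 of 27 alternatives beside male horses alone, among them those without m8, m9, m10, m13, m16, m18, m20, m21, m22 or m23. The count of 6 fallen lipid genes was 2 without m10, 10 by limma voom, and 1 without m14, m16, m17 and m22, where ACACA had -0.81 (adjusted p = 0.0879), SCD -2.30 (adjusted p = 0.195) and FASN -1.26 (adjusted p = 0.129). The call of SCD was also lost with no filter on low counts, with sex and with a fibre score as covariate (adjusted p up to 0.101). The 2 risen genes were 1 without m8, m10, m16, m18, m20, m21, m22 or m23 and 0 without m9 or m13.

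Genes of the neuromuscular junction and dystrophin complex, which anchor the fibre membrane and organise the synapse, had 7 of 23 tested members called lower (UTRN, ERBB2, LRP4, DAG1, ANK2, SSPN and SGCB) and none higher, with a median of -0.36. The lower share was 30.4%, against 9.3% over all genes. UTRN, the junctional relative of dystrophin, was at 27.9, 22.7, 21.8, 18.4 and 19.1 CPM in T0 and ran from 5.61 over a median of 9.53 to 16.9 CPM in T2. No T2 library reached T0 (-1.13 ± 0.20, edgeR adjusted p = 0.00161), and T1 stood at 19.6 ± 4.13 CPM. DAG1, dystroglycan, fell from 128 ± 35.0 to 85.4 ± 19.3 CPM (-0.59 ± 0.15, adjusted p = 0.0133). ERBB2, a receptor subunit for nerve-derived neuregulin, fell from 6.57 ± 2.38 to 3.92 ± 0.823 CPM (-0.76 ± 0.18, adjusted p = 0.00888).

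The members of that complex are long genes, with a median span of 34.8 kb, and UTRN spans 368 kb. With the span trend removed 5 of the 23 were called lower. The count of 7 was 4 without m8, m9, m10, m16 or m17, 2 without m13, 4 with no filter on low counts, 4 with a fibre score as covariate, and 1 without m14, m16, m17 and m22. Without m12, 1 member was called higher. DAG1 ended without m13 (-0.43, edgeR adjusted p = 0.0742) and ERBB2 without m8 (-0.49, adjusted p = 0.0684). Without the 4 libraries DAG1 had -0.48 (adjusted p = 0.122) and ERBB2 -0.76 (adjusted p = 0.0534).

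Genes of thick filament assembly and of calcium handling and excitation showed single changes. Of 44 calcium genes tested, 1 was called higher (2.27%) and 2 lower (4.55%), both below the shares over all genes (6.73% and 9.3%). The lower count was 1 without m9, m10, m13, m14, m16, m17, m18, m20, m21 or m22, 4 without m12 or m23 and 5 without m19, and the higher count was 2 without m12, m15, m16 or m19. Without m14, m16, m17 and m22 they were 1 and 0. SMYD1, a muscle methyltransferase needed for thick filament assembly, was at 53.8, 61.4, 61.1, 51.0 and 62.1 CPM in T0 and ran from 20.6 over a median of 35.3 to 47.7 CPM in T2, all below T0 (-0.75 ± 0.16, edgeR adjusted p = 0.00493). CACNA2D1, an auxiliary subunit of the voltage-gated calcium channel, was at 40.5, 50.3, 46.3, 57.5 and 55.5 CPM in T0 and at 17.6 to 37.1 CPM in T2 (median 31.8), all below T0 (-0.76 ± 0.15, adjusted p = 0.0031). MICU2, a regulator of calcium entry into mitochondria, rose by 0.43 ± 0.11 (adjusted p = 0.0159), with 7 of 10 T2 libraries above T0. Without m14, m16, m17 and m22 MICU2 had 0.37 (adjusted p = 0.108).

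Extracellular matrix genes had 7 of 53 tested members called lower (COL5A1, HSPG2, MMP14, NID1, POSTN, ELN and LAMC1) and none higher, with a median of -0.42. The lower share was 13.2%, against 9.3% over all genes. The list's median span was 39.0 kb, and among all genes of 38.6 to 59.8 kb 12.6% were called lower. LAMC1, a laminin chain of the basement membrane, was at 78.3, 85.7, 78.1, 66.2 and 66.6 CPM in T0 and ran from 29.8 over a median of 48.3 to 60.5 CPM in T2. Every T2 library lay below every T0 library (-0.70 ± 0.14, edgeR adjusted p = 0.0042). MMP14, a membrane-bound collagenase, fell from 2.54 ± 1.04 to 1.26 ± 0.383 CPM (-1.01 ± 0.24, adjusted p = 0.00759), and its T1 mean was 1.13 ± 0.304 CPM. COL3A1, a fibrillar collagen, was at 71.2, 116, 110, 15.1 and 29.2 CPM in T0 and at 15.5 to 62.9 CPM in T2 (-1.03 ± 0.40, adjusted p = 0.0786). T0 library m13 lay within the T2 range and m12 just below it. COL1A1, the main fibrillar collagen, overlapped more fully, at 6.36 to 40.6 CPM in T0 and 3.78 to 40.5 in T2 (-0.70 ± 0.44, adjusted p = 0.282).

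The matrix count moved both ways with the libraries. It was 4 without m8, 4 without m9, 17 without m12, 12 without m14, 14 without m15, 26 by limma voom, and 1 without m14, m16, m17 and m22, where MMP14 had -0.85 (edgeR adjusted p = 0.0839). With the span trend removed it was 5. Fibroblast markers (8 tested) summed to 108 to 414 CPM in T0 and 90.8 to 308 in T2, with no call and a median of -0.52. Endothelial markers (10 tested) summed to 246 to 358 CPM in T0 and 190 to 298 in T2 (median -0.26, no call). Lists of neutrophil, lymphocyte and erythroid markers had no tested identifier under their symbols. Markers of smooth muscle cells and pericytes had 4 of 11 tested members called lower (NOTCH3, RGS5, PDGFRB and CSPG4) with a median of -0.73. That was 36.4% called lower, against 9.3% over all genes. Another 4 of the 11 had log2 fold changes above 0, up to 0.42, and none was called higher. The part of these cell types in the matrix result was not tested.

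RGS5, a marker of pericytes, was at 31.6, 39.0, 21.1, 36.5 and 21.7 CPM in T0 and ran from 12.3 over a median of 17.2 to 26.3 CPM in T2. In T2 9 of 10 libraries lay below T0 (-0.82 ± 0.18, edgeR adjusted p = 0.00624). PDGFRB, the pericyte growth factor receptor, changed by -0.78 ± 0.24 (adjusted p = 0.0293) and lost its call in 8 of 27 alternatives other than male horses alone, among them those without m8, m9, m10, m13 or m17. The summed level of the 11 markers was 196 to 570 CPM in T0 and 185 to 310 in T2, so the groups overlapped. The marker count of 4 was 1 without m8, m9, m10, m13 or m17, 2 without m16, m18 or m22, and 0 without m14, m16, m17 and m22, where RGS5 had -0.61 (adjusted p = 0.084) and PDGFRB -0.56 (adjusted p = 0.18).

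Circadian clock genes, whose transcripts follow the time of day, had 3 of 21 tested members called lower (CLOCK, RORA and TEF) and 1 higher (CIART). These shares were 14.3% and 4.76%, against 9.3% and 6.73% over all genes, and the list's median was 0.01. CIART, a repressor within the clock, was at 12.9, 9.21, 9.15, 9.01 and 10.8 CPM in T0 and ran from 11.6 over a median of 19.9 to 92.2 CPM in T2. Only T0 library m8 reached the lowest T2 libraries, and the log2 fold change was 1.61 ± 0.45 (edgeR adjusted p = 0.0205). CLOCK, the core activator, was at 5.86, 5.94, 6.68, 4.45 and 6.97 CPM in T0 and at 0.813 to 4.55 CPM in T2 (-1.07 ± 0.29, adjusted p = 0.0167). TEF, an output factor of the clock, fell from 13.7 ± 4.90 to 8.21 ± 1.22 CPM (-0.74 ± 0.16, adjusted p = 0.00534).

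PER1, a repressor of the clock (0.94 ± 0.37, edgeR adjusted p = 0.0854), and ARNTL, the partner of CLOCK (-0.84 ± 0.32, adjusted p = 0.0727), did not pass. T2 libraries m14 and m21 were the highest of T2 for CIART (92.2 and 69.8 CPM, next 34.1) and for PER1 (115 and 132 CPM, next 82.7). They were also the highest for TRIM63 (226 and 252, next 127), UCP3 (163 and 197, next 38.7) and PPARGC1A (74.0 and 72.5, next 22.7), genes set together here after their values were seen. CIART kept its call without m14 (1.25, edgeR adjusted p = 0.022) and without m21 (1.39, adjusted p = 0.0296). The labels used here give no hour of biopsy, so time of day could not be compared between groups. CIART had 1.58 without m9 (adjusted p = 0.0517) and 1.60 with only T0 and T2 in the fit (adjusted p = 0.0589), and RORA, a nuclear receptor of the clock, had -0.79 without m13 (adjusted p = 0.0823) from -0.96. Without m14, m16, m17 and m22 no clock gene passed, with CIART at 1.24 (adjusted p = 0.093), CLOCK at -0.88 (adjusted p = 0.0856), TEF at -0.65 (adjusted p = 0.058) and RORA at -1.02 (adjusted p = 0.0614).

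Epigenetic and RNA processing regulators had 8 of 58 tested genes called lower and 5 higher. These shares were 13.8% and 8.62%, against 9.3% and 6.73% over all genes. KMT2A, a histone methyltransferase, had the tightest T0 values of the genes described: 18.5, 17.9, 19.8, 18.6 and 19.4 CPM. In T2 it ran from 5.18 over a median of 8.25 to 14.2 CPM, all below T0 (-1.10 ± 0.18, edgeR adjusted p = 0.00117), and in T1 it was at 16.6 ± 3.61 CPM. DNMT3A, a DNA methyltransferase, fell from 9.22 ± 2.92 to 5.61 ± 1.02 CPM (-0.72 ± 0.16, adjusted p = 0.00657). EED, a core subunit of the repressive complex PRC2, was at 8.44, 8.64, 8.21, 7.95 and 7.2 CPM in T0 and at 8.74 to 14.3 CPM in T2 (median 11.6), all above T0 (0.50 ± 0.13, adjusted p = 0.0111). With the span trend removed the counts turned to 4 lower and 8 higher. The 8 lower calls were 5 without m8 or m10 and 4 without m13, and the 5 higher calls were 2 without m9 or m13. Without m14, m16, m17 and m22 these were 1 and 0, with DNMT3A at -0.61 (adjusted p = 0.0686) and EED at 0.38 (adjusted p = 0.108).

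Large falls outside these lists were in genes of varied function. RNF213, a large ubiquitin ligase linked to vessel disease and antimicrobial defence, was at 11.1, 27.2, 9.15, 8.27 and 12.6 CPM in T0 and ran from 2.5 over a median of 3.27 to 6.39 CPM in T2 (-1.72 ± 0.29, edgeR adjusted p = 0.00125). NIN, a centrosome protein, was at 8.6, 8.22, 6.63, 3.92 and 6.58 CPM in T0 and at 0.962 to 3.28 CPM in T2 (-1.45 ± 0.24, adjusted p = 0.00117). SH3PXD2A, a scaffold of invasive membrane protrusions, fell from 11.4 ± 4.31 to 4.29 ± 1.55 CPM (-1.40 ± 0.22, adjusted p = 0.00116). These 3 genes and SETBP1, a DNA-binding protein (-1.28 ± 0.21, adjusted p = 0.00117), had every T2 library below every T0 library.

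LIFR, a receptor subunit for cytokines of the interleukin 6 family, also had no overlap, at 9.22 to 16 CPM in T0 and 1.12 to 8.36 in T2 (-1.43 ± 0.33, edgeR adjusted p = 0.00754). Its T1 mean was 13.7 ± 5.16 CPM. GJA1, connexin 43 of gap junctions, fell from 7.30 ± 2.75 to 2.85 ± 1.51 CPM (-1.36 ± 0.28, adjusted p = 0.00494), with 9 of 10 T2 libraries below T0. KCNN3, a calcium-activated potassium channel, changed by -1.31 ± 0.31 (adjusted p = 0.00908), by -0.98 without m13 (adjusted p = 0.0538) and by -1.26 without m14, m16, m17 and m22 (adjusted p = 0.0802).

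Among the largest rises, TUBB4A, a tubulin, was at 4.5, 4.32, 5.26, 2.76 and 2.59 CPM in T0 and ran from 5.80 over a median of 7.48 to 10.3 CPM in T2. All T2 libraries were above T0 (0.97 ± 0.20, edgeR adjusted p = 0.00479), and without m14, m16, m17 and m22 it had 0.75 (adjusted p = 0.0519). The identifier 5_8S_rRNA, a ribosomal RNA of many near-identical copies whose count is therefore uncertain, had the largest rise by the naming rule (2.37 ± 0.76, adjusted p = 0.0399). It was at 3.36, 10.5, 5.05, 9.12 and 26.5 CPM in T0 and at 11.7 to 105 CPM in T2 (median 52.0). Apart from male horses alone, its call was lost in 13 of 27 alternatives, among them those without m8, m9, m10, m12, m14, m17, m18, m21 or m22.

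The direction of change followed gene span. Among the 963 genes with the shortest spans (up to 2.54 kb) 10.4% were called higher and 2.18% lower, and the median log2 fold change was 0.14. Among the 963 with the longest spans (105 kb and more) 3.43% were called higher and 20.5% lower, with a median of -0.19. All falling genes described above as non-overlapping are longer than the median span of 18.7 kb, from SMYD1 at 40.1 kb to CACNA2D1 at 487 kb. Rises without overlap include short genes (ATP5J2, 2.78 kb) and long ones (PSMD14, 87.5 kb). When the trend of level on span was removed in each library, 843 genes were called higher and 665 lower, against 672 and 1003 among the same 9628 genes with coordinates before removal. RNA integrity per library was not used here. The labels state an integrity number above 8.5 for all samples, and its part in this pattern was not tested.

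**Figure D4:**
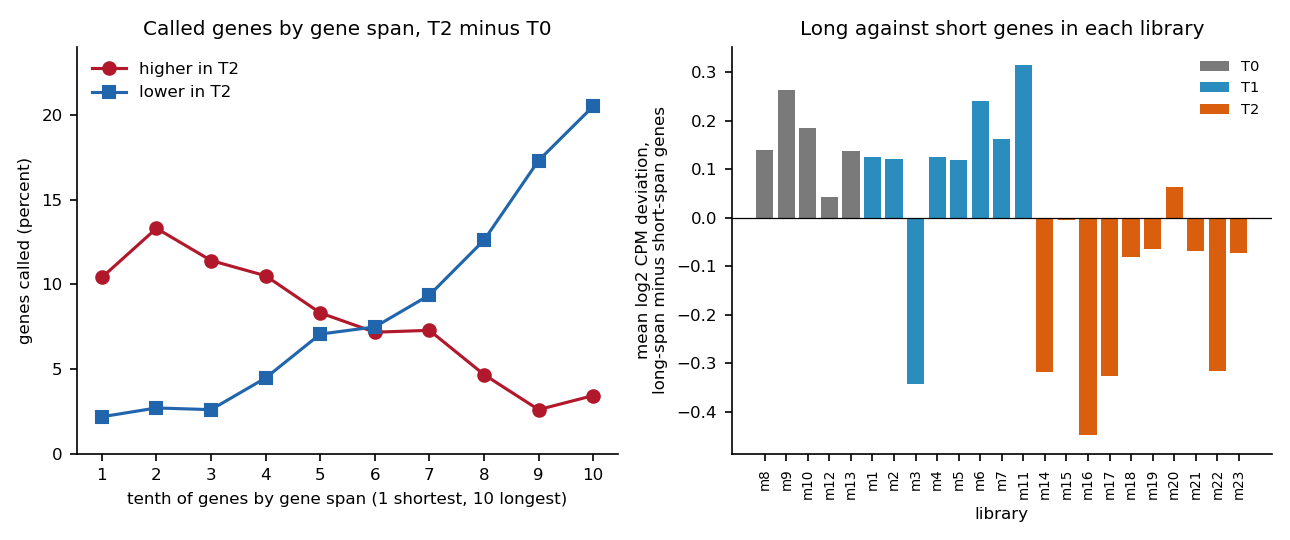
Left, percent of genes called higher or lower in T2 by gene span, in 10 equal groups from shortest to longest. Right, the long-minus-short value of each library (mean log2 CPM deviation of the longest genes minus that of the shortest genes), where T2 libraries m14, m16, m17 and m22 lie at -0.316 or below and all T0 libraries lie above 0.

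Calls also differed by level of expression. In the fifth of genes with the lowest mean level 0.78% were called higher and 10.3% lower, and in the fifth with the highest level 16.9% and 4.94%. The 1917 tested identifiers without an annotation in the authors' tables had 16 higher and 244 lower calls, a median log2 fold change of -0.37 and a median level of -0.18 log2 CPM.

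Transcripts were tested in the same way, and 1525 of 12334 were called (12.4%). Of 147 genes with more than 1 tested transcript, 42 had a called transcript, and in 6 of these (ATR, DYNC1H1, RBM10, SON, SPG11 and TRIP12), singled out after their values were seen, one transcript rose and another fell. In DYNC1H1, the heavy chain of the dynein motor, transcript 201 spans 69.3 kb and fell from 179 ± 33.0 to 129 ± 21 CPM (-0.47 ± 0.13, edgeR adjusted p = 0.0193). Transcript 203 covers 1.08 kb at one end of it (chromosome 24, 43766306 to 43767382 in the authors' coordinates, for which no genome build was found) and rose from 8.64 ± 1.78 to 18.6 ± 5.58 CPM (1.11 ± 0.22, adjusted p = 0.006).

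In ATR, a kinase of the DNA damage response, the transcript of 108 kb fell (-1.24 ± 0.23, edgeR adjusted p = 0.00393) and that of 42.5 kb rose (0.75 ± 0.17, adjusted p = 0.0103). SPG11 and RBM10 showed the same order, with the longer transcript lower and the shorter one higher, whereas the opposed transcripts of TRIP12 and SON differ little or not at all in span. Over the 90 genes whose shortest and longest tested transcripts differ in span, the shorter one had the higher log2 fold change in 58, with a median difference of 0.25. RSEM divides reads between overlapping transcripts by estimation, so values of transcripts of 1 gene are not independent.

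Sex did not give a detectable difference in the response. No gene of 11545 passed the interaction of sex with T2 minus T0 (edgeR adjusted p of 0.05; 448 had an unadjusted p under 0.05; no other tool was run), with 2 female T0 libraries. In that model, which borrows the spread of all libraries, 118 genes were called in males (11 higher, 107 lower) and 4 in females, all lower.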

How the data were processed

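Single-end RNA sequencing libraries of 23 gluteus medius biopsies were prepared with the TruSeq RNA v2 kit. The authors deposited estimated counts per gene and per transcript as whole numbers, and FastQC, STAR, RSEM and DESeq2 were used upstream, per the submitters' processing notes, with no version or build found. How 6 technical repetitions were pooled is not stated. Strand use in counting is not stated, so overlapping antisense genes cannot be told apart. Symbols and coordinates came from the annotation columns of the authors' tables (9628 of 11545 tested genes annotated, 8842 with a symbol), and the deposited fold changes were not used.

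The members of the comparison and the gene lists were chosen with earlier results of these data known. Of 26991 genes, 6643 were 0 throughout, and edgeR's filter (count 10, total 15) kept 11545. All 23 libraries entered one 3-group quasi-likelihood fit (edgeR 4.0.16, R 4.3.3, robust, TMM scaling), with T2 minus T0 as the contrast and Benjamini-Hochberg adjustment at 0.05. Errors are the log2 fold change divided by the root of F. CPM values are TMM-scaled, with a prior count of 2 for log2 values. The script was tested on simulated data.

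The rule for named genes took, from called genes carrying a symbol, the 12 that rose most and the 12 that fell most with an average level of 2 log2 CPM or more, then up to 3 called members per list by p, and a fixed panel. Those described were selected from them with their values known, and some are not reported here. Alternatives included DESeq2 1.42.0, limma 3.58.1 voom, other scaling and filters, sex or a slow-minus-fast fibre score as covariate, male horses alone and each library left out. No sequences are shown because none were used here.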

Additional observations from a re-analysis of the deposited data

Results flagged for a closer look

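The search took the 79 gene identifiers followed singly (called or not) and 4 measures of the libraries. In each, the T0 and the T2 libraries were searched for a library far from the rest, by Dixon's gap test at its 95% critical value. Of 166 groups, 17 had one. The test's rate of about 5% by chance holds for normally distributed values. It was run here on CPM without log scaling, and in all 17 the library stood high. The 17 therefore cannot be set against 5%. All values are CPM, and none of the 17 was given an explanation.

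In T0, library m12 stood above the others for MYH7 (18930, next 7654), MYL3 (1033, next 473.6), PDK4 (40.59, next 3.262) and MICU2 (73.45, next 56.61). Library m13 stood high for SH3PXD2A (18.95, next 10.92) and TEF (22.33, next 12.68). Library m10 stood high for the lipid synthesis genes FASN (95.49, next 29.92) and SCD (43.51, next 5.985). Library m9 stood high for RNF213 (27.17, next 12.6).

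In T2, library m23 stood high for the slow fibre genes MYH7 (25920, next 12700) and ANKRD2 (146.8, next 61.19). Library m15 stood high for COL1A1 (40.49, next 16.98) and SCD (5.579, next 2.716). Single libraries stood high for PDK4 (811.7 in m21, next 231.3), RGS5 (26.27 in m20, next 19.44), GJA1 (6.386 in m16, next 3.636) and IGF1R (3.357 in m14, next 2.53).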

How the results depend on the processing

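No paired analysis was possible because library numbers are not shared between groups. The 1851 calls became 2940 with limma voom (1360 higher), 25 with male horses alone (1 higher, 24 lower) and 276 (59 higher, 217 lower) without T2 libraries m14, m16, m17 and m22. With each library left out in turn, calls ranged from 986 (without m13) to 2414 (without m12), higher calls from 306 to 1111 and lower calls from 644 (without m8) to 1303. Removing the span trend gave 843 higher and 665 lower calls. DESeq2 gave 2319, of which 1839 were called the same way by edgeR. The 1525 called transcripts became 2302 with DESeq2, 2571 with limma voom and 638 (without m13) to 1987 (without m12) by leaving out libraries. The mitochondrially encoded share differed by 2.80 (without m9) to 7.21 percentage points (without m12), and by 1.62 with male horses alone.

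Among the 79 identifiers followed singly, signs turned only in genes that had not passed. With the fibre score as covariate ACTN3 had 0.0229, MYH2 ENSECAG00000022909 0.0603, LDHA 0.29 and MYH7 -0.27. The score was computed in these same libraries from the levels of fibre-type genes, to which ACTN3, MYH2 and MYH7 belong. For these genes the adjustment is therefore circular, and their turned signs under it say nothing about how stable their differences are. With sex as covariate LDHA had 0.0230 and MYH7 -0.0192. With male horses alone LDHA had 0.30, MYH7 -0.0654 and MYH2 ENSECAG00000024667 -0.00082. PGAM2 had -0.0829 without the 4 T2 libraries and PPARGC1A -0.14 with limma voom. Leaving out libraries moved LDHA between -0.16 and 0.14 and MYH7 between -0.34 (without m23) and 0.60 (without m12). The cause was not tested for any of these.

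The restriction to genes with coordinates, the removal of the span trend and the joint omission of the 4 T2 libraries were added after seeing the data. With 5 T0 libraries, single T0 libraries decided many calls, and the 3 male T0 libraries limit the analysis of males alone. Low counts limit genes near 1 CPM, such as SCD and MMP14.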

Other observations

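Ribosome biogenesis genes had 8 of 60 tested members called higher (13.3% against 6.73% over all genes) and none lower. Their median was 0.10 on the log2 scale, and 38 of the 60 values were above 0. The count of 8 was 4 without m9, 4 without m13, 5 without m17, 5 without m22 and 1 without m14, m16, m17 and m22. Cytosolic ribosomal proteins had a median of 0.38 over 58 tested genes, with 57 values above 0 but 2 called higher (RPL26L1 and RPS27L, 3.45% against 6.73% over all genes). That count was 1 without m9, 21 without m12, 29 by limma voom and 0 without m14, m16, m17 and m22. Amino acid and amine metabolism had 4 of 43 genes called higher and 1 lower (9.3% and 2.33%, against 6.73% and 9.3% over all genes). The higher count was 2 without m9 or m10, 1 without m13, 9 by DESeq2, 8 by limma voom and 0 without m14, m16, m17 and m22. The lower count was 0 without m8, m9, m13 or those 4 libraries and 2 without m12, m19 or m20. With the span trend removed they were 6 and 2. ODC1, which makes polyamines, was at 20.4, 22.1, 14.9, 18.8 and 13.6 CPM in T0 and ran from 19.6 over a median of 26.6 to 36.9 CPM in T2 (0.56 ± 0.14, edgeR adjusted p = 0.0119), and had 0.59 without those 4 libraries (adjusted p = 0.0607).

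The unfolded protein response had MANF and DNAJB9 higher and CREB3L2, ATF6 and SEL1L lower of 24 tested. These shares were 8.33% and 12.5%, against 6.73% and 9.3% over all genes. No member was called with the span trend removed, without m9 or without m14, m16, m17 and m22. Angiogenesis and hypoxia genes had 2 of 26 called higher (VEGFB and ANKRD37), or 7.69% against 6.73% over all genes. None was called without m9, without m10 or without those 4 libraries. Inflammation and antigen presentation had 2 of 33 called lower (OAS1 and CXCL12), or 6.06% against 9.3% over all genes. OAS1, an interferon-induced sensor of viral RNA, changed by -1.23 ± 0.35 (edgeR adjusted p = 0.0222), with 6.6 CPM in T0 library m9, and by -0.77 without m9 (adjusted p = 0.164). Without the 4 T2 libraries it had -1.24 (adjusted p = 0.0921).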
